A study of Homo sapiens with 4 samples.

Results

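The 5 mature miRNAs described here, hsa-miR-424-3p, hsa-miR-450a-5p, hsa-miR-450b-5p, hsa-miR-542-3p and hsa-miR-542-5p (written below without hsa), are companions of miR-424-5p and miR-503-5p, with which they share a short stretch of the X chromosome. They were taken by name from the 2656 mature miRNAs counted in RD cells, and all 5 were listed. RD cells are a long-established human line from an embryonal rhabdomyosarcoma, a muscle-like tumour, and had received no treatment. Biotin-labelled antisense probes were added to native lysate, and streptavidin beads captured what they bound. The EVEN and ODD libraries come from 2 separate probe sets against exon 2 of HIPK3, the exon that makes up the circular RNA circHIPK3 and that linear HIPK3 mRNA also holds. The LacZ library comes from control probes against a bacterial mRNA, and the input library from lysate before capture. Each of the 4 groups holds 1 library from 1 line, so no difference below has a replicate check, and every interval covers counting error only.

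A miRNA hairpin yields a 5p and a 3p arm, and usually 1 of them is loaded into Argonaute as the guide while the other is mostly degraded. Bases 2 to 8 of the guide, the seed, pair with target mRNAs. miR-424 (miR-322 in mouse) and miR-503 rise during muscle differentiation and help myoblasts leave the cell cycle. miR-542-3p has been reported to repress BIRC5, the inhibitor of cell death survivin, and miR-450b-5p to promote the muscle differentiation of rhabdomyosarcoma cells.

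The mature sequences below, from RefSeq on GRCh38.p14, show which arms could be told apart by their letters, with the seed in capitals. The RefSeq table held 4 of the 5 members, all but miR-542-3p, and miR-424-5p and miR-503-5p are set beside them because the results turn on the contrast with these neighbours.
miR-424-3p: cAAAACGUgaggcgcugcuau
miR-450a-5p: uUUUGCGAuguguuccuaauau
miR-450b-5p: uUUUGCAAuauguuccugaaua
miR-542-5p: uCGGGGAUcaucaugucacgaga
miR-424-5p: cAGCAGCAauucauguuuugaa
miR-503-5p: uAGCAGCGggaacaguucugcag

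Seeds could be compared only among the 2367 of the 2656 listed miRNAs that had a RefSeq sequence. No other miRNA among these shared a seed with miR-424-3p, miR-450a-5p, miR-450b-5p or miR-542-5p. miR-450a-5p and miR-450b-5p differ at 6 of 22 positions, counted from 1 at the 5′ end, and only G7A lies within the seed. The others, G10A, A18G, U20A, A21U and U22A, lie outside it. miR-450a-5p is made from both MIR450A1 and MIR450A2, so its reads cannot be assigned to either hairpin. The sources used here do not say how reads that fit several miRNAs were counted. The GC content was 27.3% for miR-450b-5p, 31.8% for miR-450a-5p, 52.2% for miR-542-5p and 52.4% for miR-424-3p, against a median of 47.6% over the 422 miRNAs with a sequence and at least 20 input reads.

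The 6 hairpins of the cluster lie on the minus strand of chromosome X within 6527 nt, from 134540185 to 134546711 of GRCh38. In the order of transcription these are MIR424, MIR503, MIR542, MIR450A2, MIR450A1 and MIR450B. In GENCODE release 29 MIR424 (134546614 to 134546711) overlaps an exon of the long non-coding RNA MIR503HG, and MIR503 (134546328 to 134546398) lies in an intron of it. MIR542 (134541341 to 134541437) starts 1900 nt past the annotated end of MIR503HG, and MIR450A2 (134540508 to 134540607), MIR450A1 (134540341 to 134540431) and MIR450B (134540185 to 134540262) lie 2730, 2906 and 3075 nt past it. The annotation therefore places 4 of the 6 hairpins outside that transcript, and a shared primary transcript is background here, not a measurement.

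The libraries held 98950 miRNA reads in EVEN, 426450 in ODD, 425395 in LacZ and 2987858 in the input, so EVEN was the shallowest. Levels are given as CPM, the deposited counts scaled to the library's miRNA total, with a 95% exact Poisson interval. A floor of 3 counts, used where a library has 0 reads, is 30.3 CPM in EVEN, 7.03 in ODD, 7.05 in LacZ and 1.00 in the input. The myogenic miRNAs miR-206, miR-1-3p, miR-133a-3p and miR-133b summed to 62125 CPM in the input, where miR-206 ranked 4 among all miRNAs. The 6 miRNAs of other cell types (miR-122-5p, miR-124-3p, miR-142-3p, miR-223-3p, miR-200c-3p and miR-205-5p) summed to 384 CPM in EVEN, 877 in ODD, 599 in LacZ and 72.0 in the input. Of these, miR-122-5p was at 0 in EVEN and ODD and miR-124-3p at 0 in all 3 pull-downs. Most of the sum in ODD and LacZ was the epithelial miR-205-5p, at 202 CPM in EVEN, 832 in ODD, 489 in LacZ and 1.34 in the input. The blood cell miR-142-3p was at 131 CPM in EVEN, from 13 reads, 9.38 in ODD, 21.2 in LacZ and 6.02 in the input. miR-223-3p, also of blood cells, was at 20.2 CPM in EVEN, 11.7 in ODD, 37.6 in LacZ and 30.5 in the input. The part of these miRNAs in the results below was not tested.

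All 5 companions were present in RD lysate and were lower in both circHIPK3 pull-downs than in the input. miR-542-3p, the more abundant arm of its hairpin, had 25 reads in EVEN, 45 in ODD, 349 in LacZ and 7989 in the input. That is 253 CPM (164 to 373) in EVEN, 106 (77.0 to 141) in ODD, 820 (737 to 911) in LacZ and 2674 (2616 to 2733) in the input. It stood highest in the input, where it ranked 57 among all miRNAs, and lowest with ODD probes, and its 4 intervals did not overlap.

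miR-450b-5p, the guide arm of MIR450B, was next in the input. It had 28 reads in EVEN, 73 in ODD, 433 in LacZ and 3815 in the input, or 283 CPM (188 to 409), 171 (134 to 215), 1018 (924 to 1118) and 1277 (1237 to 1318) in these libraries. The EVEN and ODD intervals overlapped, and both lay below those of LacZ and the input. In EVEN, ODD and LacZ its count was above that of miR-542-3p, whereas in the input miR-542-3p led.

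The arms with few reads were the other 3. miR-542-5p had 8 reads in EVEN, 10 in ODD, 125 in LacZ and 952 in the input (80.8, 23.4, 294 and 319 CPM), so LacZ and input were close while both circHIPK3 libraries were lower. miR-450a-5p had 2, 3, 27 and 656 reads in the same libraries (20.2, 7.03, 63.5 and 220 CPM) and stood highest in the input. miR-424-3p, the minor arm of MIR424, had 4, 10, 30 and 415 reads (40.4, 23.4, 70.5 and 139 CPM). The EVEN and LacZ intervals overlapped for miR-450a-5p and miR-424-3p, and the EVEN values of both rest on fewer than 5 reads.

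**Figure D1:**
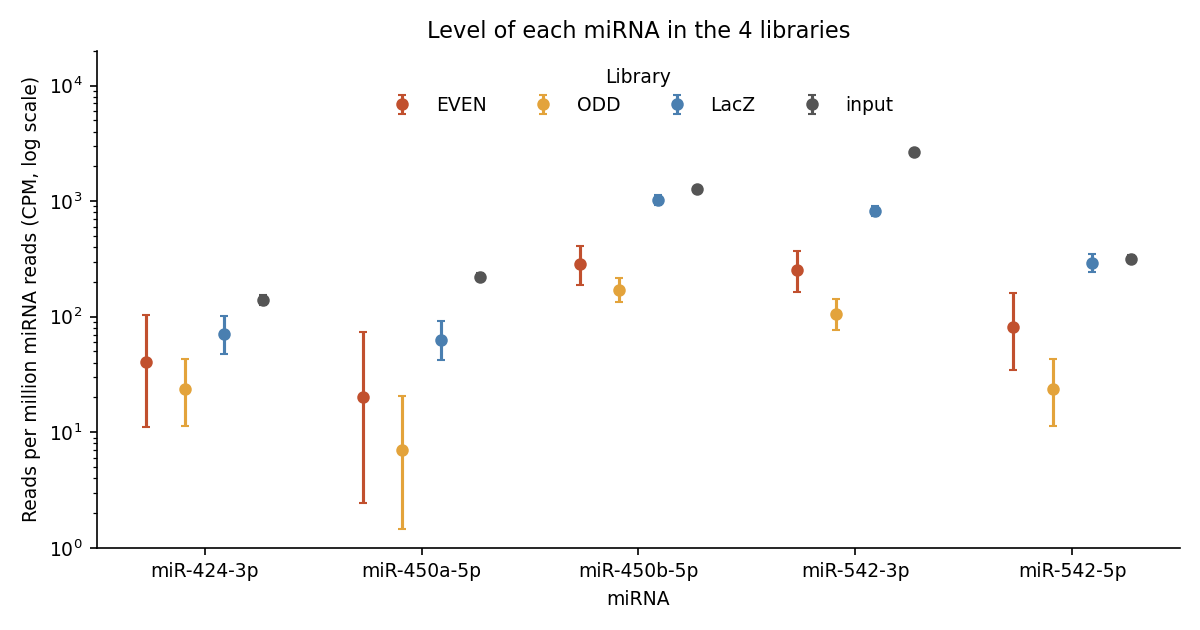
Level of each of the 5 miRNAs (CPM, log scale) in the EVEN, ODD, LacZ and input libraries, with points for the single library of each group and bars for the 95% exact Poisson interval. For each miRNA the ODD and EVEN points lie below the LacZ point, and the input point is the highest, at 2674 CPM for miR-542-3p.

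The comparison of LacZ with the input asks what beads and control probes retain when no target is present. miR-542-3p was 3.26-fold lower in LacZ than in the input (95% exact conditional interval 2.93 to 3.64) and miR-450a-5p 3.46-fold lower (2.36 to 5.29). miR-424-3p was 1.97-fold lower (1.36 to 2.96) and miR-450b-5p 1.25-fold lower (1.14 to 1.39), both under the 2-fold threshold used for calls. For miR-542-5p the 2 libraries could not be told apart, at 1.08-fold lower (0.899 to 1.32), and its log2 ratio of -0.11 turned to 0.21 when library totals left out the 10 most abundant miRNAs.

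Testing asked for 20 reads or more in either library of a comparison. By that rule 2 of the 5 members were at least 2-fold lower in LacZ than in the input and 0 higher, against 34.3% lower and 18.1% higher of all 475 tested miRNAs. The members' median log2 ratio was -0.96, that of all tested miRNAs -0.44. With TMM or median-of-ratios factors the lower members were 3, with miR-424-3p added (log2 ratio -1.56 and -1.24). All tested miRNAs moved too, to 51.8% lower with a median of -1.04 under TMM and to 40.8% lower with a median of -0.72 under median-of-ratios factors. The companions differed from each other here: the intervals of miR-542-3p and miR-450a-5p lie apart from those of miR-450b-5p and miR-542-5p.

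With the EVEN probes, 4 of the 5 companions were at least 2-fold lower than with LacZ probes and 0 higher, against 51.2% lower and 9.69% higher among the 289 miRNAs tested. miR-450b-5p was 3.60-fold lower (2.45 to 5.48), miR-542-3p 3.25-fold lower (2.16 to 5.09) and miR-542-5p 3.63-fold lower (1.79 to 8.60). These folds lie close together and their intervals overlap. miR-450a-5p was 3.14-fold lower, but its interval of 0.789 to 27.2 holds 1, and its call was lost with median-of-ratios factors (log2 ratio -0.95) and when totals left out the 10 most abundant miRNAs (-0.94), as it was with 5 reads added to each count (-0.09). miR-424-3p was 1.74-fold lower (0.615 to 6.82), not past the threshold, and its log2 ratio of -0.66 turned to 0.14 with 5 reads added. That setting moved the median of all tested miRNAs to -0.46, with 30.1% lower and 11.1% higher.

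In EVEN against LacZ the members' median log2 ratio of -1.67 stands beside -1.06 for all tested miRNAs. Counted from the lowest, miR-450b-5p ranked 82, miR-542-5p 87, miR-542-3p 94, miR-450a-5p 111 and miR-424-3p 171 of 289. The first 4 thus lay below the median of all tested miRNAs, and miR-424-3p lay above it.

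With the ODD probes all 5 companions were at least 2-fold lower than with LacZ probes and 0 higher, against 70.3% lower and 13% higher among the 300 miRNAs tested. miR-542-5p was 12.5-fold lower (6.59 to 26.8), miR-450a-5p 9.02-fold (2.78 to 46.5) and miR-542-3p 7.77-fold (5.69 to 10.9). miR-450b-5p was 5.95-fold lower (4.63 to 7.73) and miR-424-3p 3.01-fold (1.43 to 6.90). The call for miR-424-3p was lost with TMM factors (log2 ratio -0.25), median-of-ratios factors (-0.09) and totals without the 10 most abundant miRNAs (-0.84), while the other 4 members kept theirs under those scalings.

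In ODD against LacZ the members' median log2 ratio was -2.94, against -1.79 for all tested miRNAs. From the lowest, miR-542-5p ranked 37, miR-450a-5p 63, miR-542-3p 66, miR-450b-5p 86 and miR-424-3p 172 of 300. TMM factors moved the median of all tested miRNAs to -0.50 and median-of-ratios factors to -0.35, and the share at least 2-fold lower to 34.3% and 32%. Under both, 4 of the 5 members stayed at least 2-fold lower, with log2 ratios between -2.29 and -1.12. Ratios are of shares of reads, so a lower share and a smaller recovered amount cannot be told apart. Nor can the level of a miRNA in lysate be split into how many cells hold it and how much each holds.

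**Figure D2:**
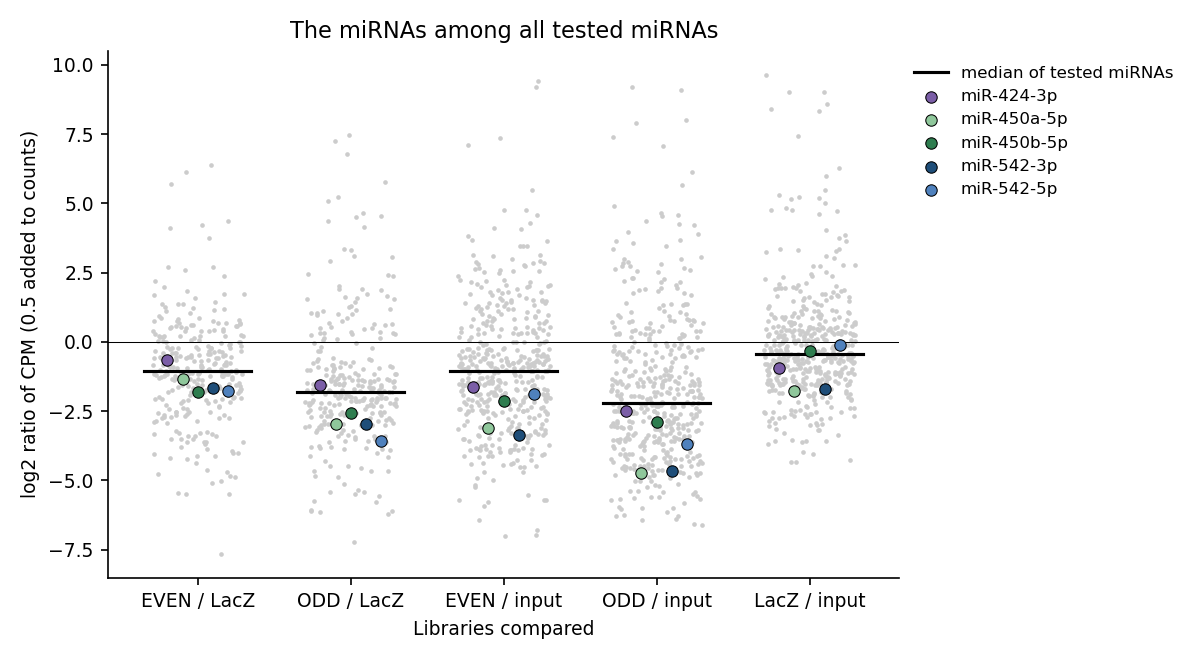
Log2 ratio of CPM, with 0.5 added to each count, for every tested miRNA (grey), the 5 companions (coloured) and the median of all tested miRNAs (black bar) in 5 comparisons of single libraries. In ODD against LacZ the companions run from -3.58 to -1.54 with 4 of them below the median of -1.79, and they lie among the other miRNAs in all 5 comparisons.

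In both probe sets together, 4 of the 5 companions were at least 2-fold below LacZ, all but miR-424-3p, against 46.5% of the 284 miRNAs tested in both. The 2 comparisons share the LacZ library. Summed over the 5 companions, the reads were 67 in EVEN, 141 in ODD, 964 in LacZ and 13827 in the input, or 677 CPM (525 to 860), 331 (278 to 390), 2266 (2125 to 2414) and 4628 (4551 to 4706). The sum was 3.35-fold lower in EVEN than in LacZ (2.61 to 4.35) and 6.85-fold lower in ODD than in LacZ (5.74 to 8.24). No companion was called higher in either pull-down.

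Against the input, all 5 companions were at least 2-fold lower in EVEN, where 52.2% of 464 tested miRNAs were lower and 18.3% higher, and in ODD, where 68.6% of 468 were lower and 13% higher. The EVEN library was 10.9-fold lower for miR-450a-5p (3.00 to 89.9), 10.6-fold for miR-542-3p (7.16 to 16.4), 4.51-fold for miR-450b-5p (3.12 to 6.80), 3.94-fold for miR-542-5p (1.99 to 9.15) and 3.44-fold for miR-424-3p (1.33 to 12.7). The ODD library was 31.2-fold lower for miR-450a-5p (10.6 to 152), 25.3-fold for miR-542-3p (18.9 to 34.8), 13.6-fold for miR-542-5p (7.36 to 28.4), 7.46-fold for miR-450b-5p (5.92 to 9.54) and 5.92-fold for miR-424-3p (3.19 to 12.4). By these values miR-450a-5p and miR-542-3p were furthest below the input, but in EVEN miR-450a-5p rests on 2 reads and its interval overlaps those of the other 4. With 5 reads added its EVEN log2 ratio was -1.64, against -1.94 for miR-450b-5p. In ODD miR-450a-5p rests on 3 reads. With 5 reads added its ODD log2 ratio was -3.56, against -4.51 for miR-542-3p and -3.19 for miR-542-5p. With median-of-ratios factors the ODD log2 ratios against the input were -3.58 for miR-450a-5p, -3.48 for miR-542-3p, -2.53 for miR-542-5p, -1.72 for miR-450b-5p and -1.33 for miR-424-3p, with 50.6% of all tested miRNAs lower and a median of -1.03. The companions' median log2 ratio was -2.15 in EVEN and -3.69 in ODD, beside -1.06 in EVEN and -2.19 in ODD for all tested miRNAs. The call of miR-424-3p in EVEN was lost when totals left out the 10 most abundant miRNAs (log2 ratio -0.87) and with 5 reads added to each count (-0.63). Those shortened totals gave EVEN log2 ratios against the input of -2.63 to -1.15 for the other 4 companions, and a median of -0.32 for all tested miRNAs. With 5 reads added, the median of all tested miRNAs in EVEN against the input moved to 0.60, with 21.3% lower and 41.8% higher. In ODD against the input that setting gave a median of -0.90, with 47.4% lower and 14.7% higher.

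Between the 2 probe sets only miR-542-3p and miR-450b-5p had the 20 reads needed. miR-542-3p was 2.39-fold higher in EVEN than in ODD (1.41 to 3.99), against 37.9% called higher and 18.2% called lower of the 203 miRNAs tested. miR-450b-5p was 1.65-fold higher in EVEN (1.03 to 2.59), and its log2 ratio of 0.74 turned to -0.28 with TMM and -0.30 with median-of-ratios factors. The call for miR-542-3p was lost with both, at 0.25 and 0.23, and with totals lacking the 10 most abundant miRNAs, at 0.99. The median of all tested miRNAs moved as well, to -0.38 with TMM factors, against 0.64 by totals.

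The other arms of the cluster, named with the companions because they come from the same or neighbouring hairpins, were lower in EVEN than in LacZ where tested, and went both ways in ODD. miR-503-5p, a guide related to the miR-15/16 family that represses cell cycle genes, had 56 reads in EVEN, 5860 in ODD, 672 in LacZ and 10679 in the input. Its level was 566 CPM in EVEN, 13741 in ODD, 1580 in LacZ and 3574 in the input. ODD stood far above the other libraries, and EVEN was the lowest. It was 2.79-fold lower in EVEN than in LacZ (2.12 to 3.73) and 8.70-fold higher in ODD than in LacZ (8.03 to 9.44). The log2 ratio in ODD against LacZ was 3.12 by totals and 3.82 to 4.57 with the other 3 scalings.

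miR-424-5p, which shares its seed with miR-15a-5p, miR-15b-5p and miR-16-5p, had 7 reads in EVEN, 234 in ODD, 145 in LacZ and 4642 in the input (70.7, 549, 341 and 1554 CPM). It was 4.82-fold lower in EVEN than in LacZ (2.28 to 12.2) and 1.61-fold higher in ODD than in LacZ (1.30 to 1.99), below the threshold by totals but past it with each of the 3 other scalings (log2 ratio 1.38 to 2.13). miR-503-3p, the minor arm, had 8 reads in EVEN, 53 in ODD, 82 in LacZ and 305 in the input. It was 2.38-fold lower in EVEN than in LacZ (1.15 to 5.71) and 1.55-fold lower in ODD than in LacZ (1.08 to 2.23), a direction that turned with the other 3 scalings (log2 ratio 0.07 to 0.82). Its call in EVEN was lost with those 3 scalings. miR-450a-1-3p had 1 read in EVEN, 3 in ODD, 42 in LacZ and 560 in the input, and was 9.77-fold lower in EVEN than in LacZ (1.66 to 395) and 14.0-fold lower in ODD than in LacZ (4.49 to 70.8). miR-450a-2-3p (0, 8, 14 and 165 reads in EVEN, ODD, LacZ and input) and miR-450b-3p (0, 0, 3 and 23 reads) were too rare to test against LacZ. Of the 4 other arms tested, 4 were at least 2-fold lower in EVEN than in LacZ, against 51.2% of all 289 miRNAs tested. In ODD against LacZ 1 was higher and 1 lower, against 13% higher and 70.3% lower of all 300 tested.

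**Figure D3:**
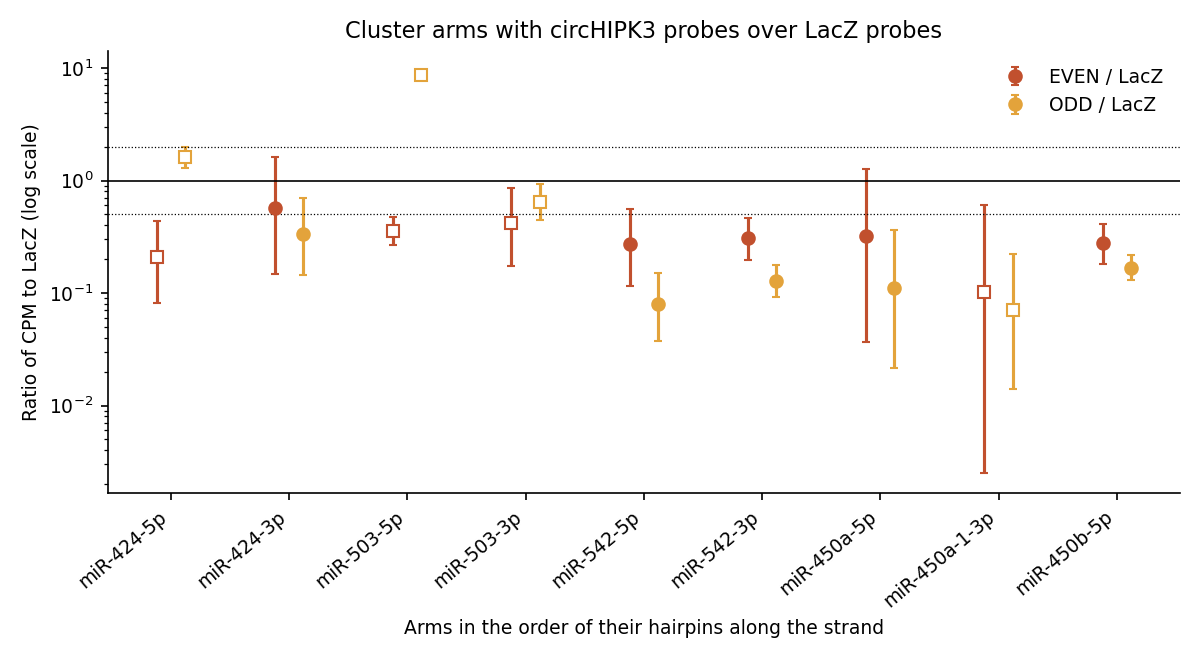
Ratio of CPM to LacZ (log scale) for 9 arms of the cluster with at least 20 LacZ reads, in the order of their hairpins along the strand, for EVEN and ODD, with 95% exact conditional intervals; filled circles are the companions and open squares the other arms. Every EVEN point and every ODD point of a companion lies below 1, while the ODD points of miR-503-5p (8.70) and miR-424-5p (1.61) lie above it.

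How the cluster's reads divide among its 11 listed arms does not depend on the scaling of a library. The 5 companions took 48.2% of the cluster's reads in EVEN (95% exact binomial interval 39.7 to 56.8), 2.24% in ODD (1.89 to 2.63), 50.2% in LacZ (47.9 to 52.4) and 45.8% in the input (45.2 to 46.3). EVEN could not be told apart from LacZ or the input, and ODD stood apart from all 3. miR-503-5p alone took 40.3% in EVEN (32.1 to 48.9), 93.0% in ODD (92.4 to 93.6), 34.96% in LacZ (32.8 to 37.1) and 35.4% in the input (34.8 to 35.9).

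**Figure D4:**
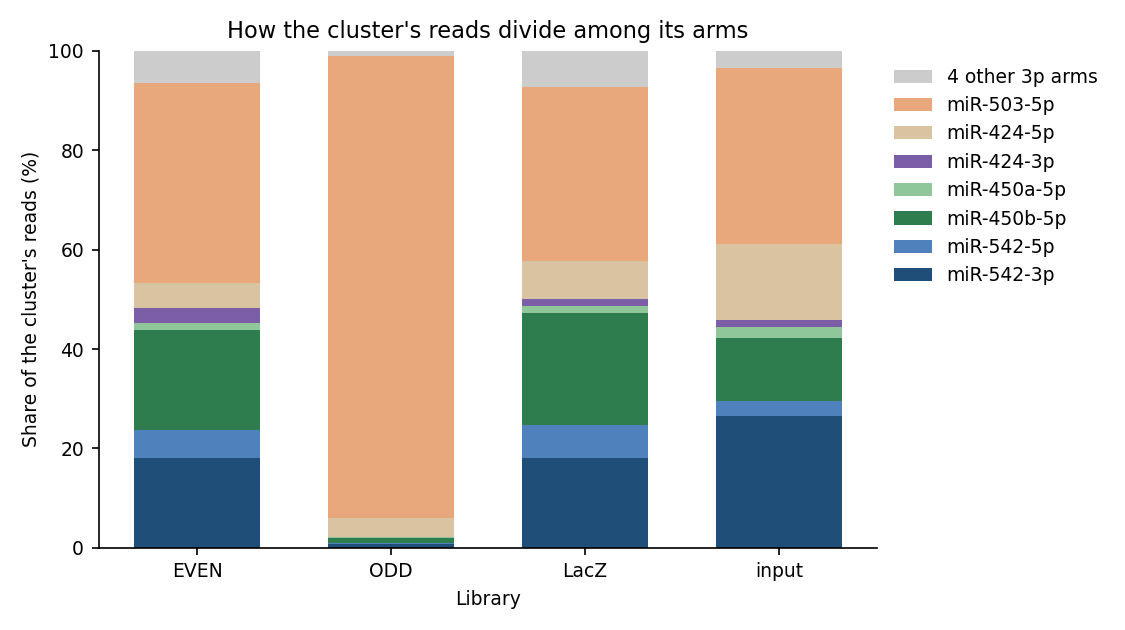
Share of all reads of the cluster's 11 arms (%) taken by each arm in the EVEN, ODD, LacZ and input libraries; the 4 other 3p arms, in grey, are miR-503-3p, miR-450a-1-3p, miR-450a-2-3p and miR-450b-3p. The companions, the 5 lowest segments, take 48.2% in EVEN, 50.2% in LacZ and 45.8% in the input but 2.24% in ODD.

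Among the companions' own reads miR-450b-5p led in the 3 pull-downs and miR-542-3p in the input, though in EVEN their intervals overlapped. miR-450b-5p took 41.8% in EVEN (29.8 to 54.5), 51.8% in ODD (43.2 to 60.3), 44.9% in LacZ (41.7 to 48.1) and 27.6% in the input (26.8 to 28.3). miR-542-3p took 37.3% in EVEN (25.8 to 50.0), 31.9% in ODD (24.3 to 40.3), 36.2% in LacZ (33.2 to 39.3) and 57.8% in the input (56.9 to 58.6). Each pull-down thus lay outside the input's interval for these arms, and the EVEN, ODD and LacZ intervals overlapped.

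The arms of 1 hairpin give a ratio that is free of the library total. For miR-542 the 3p arm had 3.12 reads for each 5p read in EVEN (95% exact interval 1.37 to 8.02), 4.50 in ODD (2.24 to 10.0), 2.79 in LacZ (2.27 to 3.45) and 8.39 in the input (7.85 to 8.98). The 3p arm led in all 4 libraries. Its odds were 0.372 times those of the input in EVEN (0.162 to 0.958), 0.536 times in ODD (0.265 to 1.20, which holds 1) and 0.333 times in LacZ (0.267 to 0.416). Against LacZ the odds of the 3p arm were 1.12 times in EVEN (0.474 to 2.95) and 1.61 times in ODD (0.771 to 3.69), and both intervals hold 1. Between LacZ and the input miR-542 ranked 36 from the lowest of 169 hairpins, of which 57.4% moved at least 2-fold in either direction. These are the hairpins that had both arms listed and 20 or more reads over both arms in LacZ and again in the input. By the same rule miR-542 ranked 32 of 104 hairpins in EVEN against the input, of which 69.2% moved at least 2-fold. In ODD against the input it ranked 62 of 129, of which 69% did.

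For miR-424 the 5p arm had more reads in every library, but in EVEN the interval of the ratio holds 1. The reads of miR-424-3p for each read of miR-424-5p were 0.571 in EVEN (0.123 to 2.25), 0.0427 in ODD (0.0202 to 0.0800), 0.207 in LacZ (0.135 to 0.308) and 0.0894 in the input (0.0807 to 0.0989). The odds of the 3p arm in ODD were 0.207 times those in LacZ (0.0877 to 0.452), while those in LacZ were 2.31 times those in the input (1.49 to 3.50). In EVEN they were 2.76 times those in LacZ, from 4 and 7 reads, with an interval of 0.553 to 11.6 that holds 1. Between ODD and LacZ 56.8% of 125 hairpins moved at least 2-fold, and miR-424 ranked 19 of the 125 from the lowest.

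**Figure D5:**
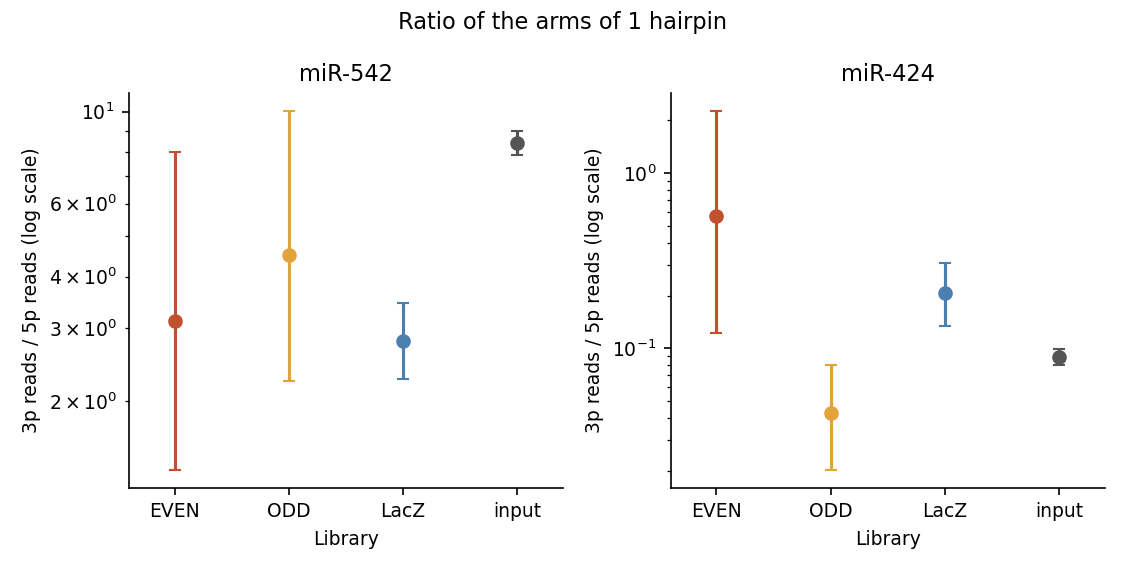
Reads of the 3p arm over reads of the 5p arm (log scale) for miR-542 and miR-424 in the EVEN, ODD, LacZ and input libraries, with 95% exact binomial intervals converted to ratios. For miR-542 the EVEN (3.12), ODD (4.50) and LacZ (2.79) points lie below the input (8.39), and for miR-424 the ODD point (0.0427) is the lowest.

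The miRNAs whose pattern over the 4 libraries was most like the companions were found from their 3 log2 ratios to the input, by the smallest root mean square difference among miRNAs with at least 100 input reads. For the summed companions, with ratios of -2.76 in EVEN, -3.80 in ODD and -1.03 in LacZ, the nearest of 297 were miR-30e-3p (difference 0.16), miR-27b-3p (0.20), miR-624-5p (0.21), miR-186-5p (0.27) and miR-507 (0.29), against a median difference of 1.74 over all 297. The most abundant of these was miR-27b-3p, with 235 reads in EVEN, 528 in ODD, 3056 in LacZ and 42213 in the input. miR-624-5p had 0 reads in EVEN, so its place rests on the 0.5 added to each count. For miR-542-3p alone, the nearest of 301 were miR-130a-3p (0.12), miR-450a-5p (0.16), miR-301a-3p (0.29), miR-199a-5p (0.29) and miR-660-5p (0.34). miR-450a-5p, its neighbour in the genome, was thus among the nearest, with 2 and 3 reads behind its EVEN and ODD values.

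Exon 2 of HIPK3, the target of both probe sets, lies on chromosome 11 at 33286413 to 33287511 of GRCh38, plus strand, and is 1099 nt long. It was searched, with the joint of the circle included, for the 7 bases complementary to each available seed, in the sense of the RNA and as the reverse complement. The complement of the miR-450b-5p seed, TTGCAAA, occurred 1 time in the sense of the RNA, in coding sequence. The complements for miR-424-3p (ACGTTTT), miR-450a-5p (TCGCAAA) and miR-542-5p (ATCCCCG) were not in this window, and none of the 4 reverse complements was. The 6 other cluster arms had no match in the sense of the RNA. Of these arms only miR-503-5p (CGCTGCT) had its reverse complement in exon 2, 1 time. How often reverse complements occur for other miRNAs or in other genes was not counted. The part of this match in the ODD level of miR-503-5p was not tested. The match at chr11:33286863-33286891 is shown with the complementary bases in capitals, because it is the only one among the 4 members searched.
HIPK3 exon 2, miR-450b-5p seed match: ttcctgcaatgTTGCAAAccaacatggga

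The central 1099 nt of the longest transcript held TTGCAAA in 9.46% of 17639 protein-coding genes, ACGTTTT in 2.94%, TCGCAAA in 1.33% and ATCCCCG in 3.38%. Of the 422 miRNAs with a sequence and at least 20 input reads, 49 (11.6%) had such a match in exon 2. A match of letters is a description and not a binding site. miR-450b-5p was lower with both probe sets than with LacZ probes, at 3.60-fold in EVEN and 5.95-fold in ODD, as given above.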

How the data were processed

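Small RNA from 1 input and 3 pull-down libraries of RD cells was prepared with a QIAseq kit and read single-end by NovaSeq, per the labels' protocols. The deposited table gives the authors' raw count of each mature miRNA, and CPM that equal each count over its library total (largest difference 1.46e-11 CPM). The build is GRCh38 per the submitters' processing notes. Not given in the sources used here: aligner, miRNA annotation, and use of molecular identifiers and strand. If identifiers were not collapsed, the intervals are too narrow.

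Members and lists were chosen with earlier results of these data known. Log2 ratios used counts with 0.5 added, divided by library miRNA totals, where either library had 20 reads, and were called at 2-fold. Folds are ratios of shares without the 0.5, with 95% exact conditional intervals. With 1 library per group no test was made; only as an alternative were EVEN and ODD fitted as 2 samples against LacZ with edgeR 4.0.16 and DESeq2 1.42.0 (305 miRNAs). Every cluster arm was named, and the 5 miRNAs nearest in pattern. Ratio calls, intervals and fits were tested on simulated data. Sequences and the seed table are RefSeq's (2367 of 2656 listed names matched); hairpins, host gene and exon 2 are from GENCODE release 29. Software was R 4.3.3, matplotlib 3.10.9, scipy 1.17.1, numpy 2.4.6, pandas 2.3.3 and Python 3.11.15.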

Additional observations from a re-analysis of the deposited data

Results flagged for a closer look

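Neighbouring arms went opposite ways with the 2 probe sets, each set against the shared LacZ library. miR-503-5p had a log2 ratio of -1.47 in EVEN against LacZ and 3.12 in ODD against LacZ. miR-424-5p had -2.17 in EVEN against LacZ and 0.68 in ODD against LacZ. The difference was not tested, since each group holds 1 library. None of the 5 companions differed in direction between the probe sets by library totals. All had lower CPM in both circHIPK3 pull-downs than in LacZ. A lower level than in LacZ was common by totals, with medians over all tested miRNAs of -1.06 in EVEN and -1.79 in ODD (log2). How often other miRNAs differed in direction was not counted. With 5 reads added to each count miR-424-3p did differ, at 0.14 in EVEN against LacZ and -1.23 in ODD against LacZ. The other companions did not.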

How the results depend on the processing

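Alternatives changed the scaling (TMM, median-of-ratios, or totals lacking the 10 most abundant miRNAs), the minimum (1 or 100 reads), the added value (5 reads, or 1 CPM on the CPM scale) or the call (4-fold, or 2-fold whose interval leaves out 1). At the 4-fold threshold the members called lower were 0 in EVEN against LacZ, 0 in LacZ against input, 0 in both probe sets together and 3 in EVEN against input, where 26.3%, 11.6%, 24.6% and 32.97% of all tested miRNAs were lower. At that threshold 4 members were lower in ODD against LacZ and 5 in ODD against input, where 45.7% and 52.4% of all tested miRNAs were. A minimum of 100 reads left 3 members to test in ODD against LacZ, and 3 were lower, against 63.5% of all 170 miRNAs tested. That minimum left none to test in EVEN against ODD. In EVEN against ODD the members called higher were 0 with TMM, with median-of-ratios factors, with totals lacking the 10 most abundant and at 4-fold, and 3 at a minimum of 1 read, where values of 2 to 10 reads enter. The share of all miRNAs higher there was 9.85%, 9.36%, 27.6%, 10.8% and 39.4% in that order. With EVEN and ODD treated as 2 samples against LacZ, which counts different probes as replicates, edgeR's quasi-likelihood test called 0 of 5 members (adjusted p 0.54 to 0.95, and 0 at an unadjusted p under 0.05) and DESeq2 called 0 of the 3 members to which it gave an adjusted p (0.75 to 0.83). In these fits miR-424-3p turned positive (log2 0.20 and 0.06). Over all 305 miRNAs edgeR called 0 (31 at an unadjusted p under 0.05) and DESeq2 4 (37 unadjusted). The cause of these changes was not tested, beyond the smaller number of members that a higher minimum leaves. Over the 3 other scalings, 57 of the members' called values kept their call, 9 lost it and 0 changed sign, and of the values with no call 2 gained one and 13 did not. The odds ratios of the arms of miR-542 and miR-424 stayed within their intervals with 0.5 added. With CPM they are the same by construction, because both arms are divided by the same library total. No paired analysis was possible because each group has 1 library. EVEN, with 98950 reads, limits the precision most, and 3 members rest on fewer than 10 reads there.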
